A study of Mus musculus with 6 samples.

Results

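Complement is a set of plasma proteins and membrane regulators in which proteases activate each other in a chain. The classical pathway starts when C1q binds a surface. Within the C1 complex the protease C1r then activates the protease C1s, which cleaves C4 and then C2. The lectin pathway uses mannose-binding lectin, ficolins or collectins with the MASP proteases, and the alternative pathway uses factor B and factor D. All of them converge on C3, while C1 inhibitor and membrane proteins such as CD55 restrain them. Most circulating complement is made in the liver, and fat tissue is a known further source of several components. The genes described here are 9 complement components and regulators, C3, C4b, C2, Cfb, C1ra, C1s1, Serping1, Cd55 and Masp1. They were looked up by symbol in the array annotation, with the brightest transcript cluster (the probe group of 1 transcribed locus) taken for each gene. Of the 9 genes, 7 had a transcript cluster with a single symbol and are among the 19047 coding genes tested. C1s1 was read from a cluster that lists it together with C1s, which RefSeq gives as another name of the same gene. This reading was chosen after the values had been seen, and C1s1 is left out of all counts of members. C3 is not analysed here.

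The 6 arrays compare 3T3-L1 cells that carry a lentiviral shRNA against stomatin (shSTOM-1, 3 arrays) with 3T3-L1 cells that carry the vector alone (control, 3 arrays). 3T3-L1 is a line of mouse fibroblasts that can be turned into adipocyte-like cells. Both groups went through 3 days of puromycin (3 µg/ml), and were then induced with IBMX, dexamethasone and insulin, kept in insulin and harvested on day 7 of adipogenesis. The samples are numbered as clones, and nothing in the sources says that they were separate cultures, so p-values describe the spread between these samples only. The arrays hold 1 of the 2 shRNAs of the study. Stom itself averaged 13.15 on the control arrays (SD 0.12, n = 3) and 10.61 on the shSTOM-1 arrays (SD 0.05, n = 3) in log2 array signal, which is 5.82-fold lower with an adjusted p of 1.13e-08 from limma. Array medians lay between 5.06 and 5.11. The values carry no detection calls, and the number of arrays limits their precision. Signals are compared between groups for the same probes, and the level of one gene is not set against that of another.

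The adipocyte identity of the cells differed between the groups. Of 16 measured white adipocyte markers, 16 were lower in shSTOM-1 cells, and their mean signal was 11.00 to 11.49 on the shSTOM-1 arrays and 14.99 to 15.06 on the control arrays. Of 12 fibroblast and preadipocyte markers, 11 were higher by this rule, with means of 14.89 to 14.94 and 12.92 to 13.11. The other, Lum, rose by 0.27 on the log2 scale and did not pass (adjusted p = 0.148). Over all genes tested, 22.2% were higher and 22.7% lower. Most markers of macrophages and hepatocytes, which also make complement, were low in both groups. The mean was 4.87 to 4.89 and 4.85 to 4.88 for 15 macrophage markers, of which 11 lay under or close to the median of all values (5.10). It was 4.55 to 4.57 and 4.41 to 4.50 for 11 hepatocyte markers, of which 10 did. Of all 19047 genes tested, 8802 did. Among the defining markers, Ptprc, Adgre1 and Csf1r of macrophages and Alb and Apoa1 of hepatocytes were all at such low signals. Some others were not. The hepatocyte marker Cyp2e1, a cytochrome P450 gene, rose 2.84-fold from a mean of 4.71 to 6.22 (adjusted p = 3.82e-06). Among macrophage markers Lyz2 rose by 0.58 on the log2 scale (means 5.71 and 5.12, adjusted p = 4.18e-05), while Cd68 fell 1.65-fold (means 6.76 and 7.48, adjusted p = 0.00365). Cd14 and Marco were not at low signals either and did not pass (adjusted p = 0.0684 and 0.556). Lyz2 and Marco were barely past the distance of 0.6 used here, with higher group means 0.61 and 0.66 above the median of all values. At low signals, Aif1 rose 1.15-fold (means 4.92 and 4.72, adjusted p = 0.0253) and Fcer1g fell 1.17-fold (means 4.07 and 4.30, adjusted p = 0.0127). In whole-cell RNA a smaller share of adipocytes and less RNA per adipocyte cannot be told apart, and the part of cell composition in the results below was not tested.

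Complement genes moved apart in shSTOM-1 cells. The protease genes C1ra and Masp1 rose, as did C1s1, while C4b, C2, Cfb and Serping1 stayed at low signals with changes of at most 0.46 in either direction on the log2 scale at the outer bounds of their 95% intervals. Of the 7 members, 4 were higher, 1 was lower and 2 were not past an adjusted p of 0.05 in limma. Among all genes tested, 22.2% were higher and 22.7% were lower by this rule. At an adjusted p under 0.001 and at least 3-fold, C1ra and Masp1 were higher and 0 members were lower, where 2.51% and 2.69% of all genes were, 5.20% in either direction. The arrays of the 2 groups did not overlap for 4 members in the higher and 1 in the lower direction, against 25.6% and 26.4% of all genes. The median log2 fold change was 0.17 over the 7 members and 0.00 over all genes tested. The member median is the value of Cfb, 1 of the 4 members at low signals, so it does not measure a general shift.

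**Figure D1:**
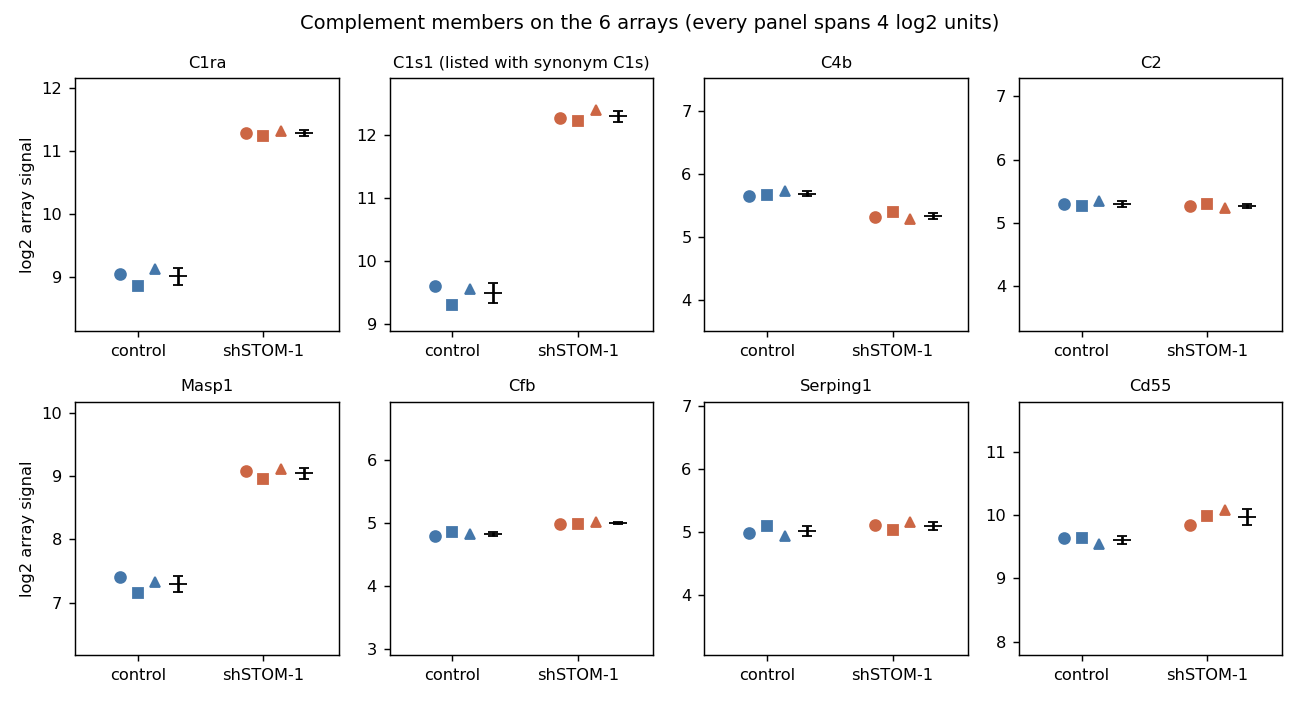
Log2 array signal (y axis) of 8 complement genes on each control (blue) and shSTOM-1 (orange) array, with circles, squares and triangles for clones 1, 2 and 3 and the mean ± SD (n = 3) in black. C1ra, C1s1 and Masp1 are far apart between the groups, while C2 and Serping1 overlap.

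C1ra encodes the protease C1r, which activates itself within C1 and then cleaves C1s. Its signal was 11.28, 11.23 and 11.32 on the shSTOM-1 arrays and 9.05, 8.86 and 9.13 on the control arrays. All shSTOM-1 arrays lay above all control arrays, a separation that 52.0% of all genes showed in either direction. limma gave a difference of 2.26 on the log2 scale with a standard error of 0.07, or 4.80-fold, at an adjusted p of 2.75e-08. C1s1 encodes C1s, the protease that cleaves C4 and C2. It was at 12.27, 12.21 and 12.39 on the shSTOM-1 arrays and at 9.60, 9.31 and 9.56 on the control arrays. The groups did not overlap, and the difference of 2.80 on the log2 scale had a standard error of 0.08, or 6.96-fold, at an adjusted p of 2.10e-08 from limma with such clusters added to the table.

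The mouse carries a further copy of each of these genes, and near-identical copies may share probes, so the values of C1ra and C1rb, and of C1s1 and C1s2, are not independent. C1rb was at 13.08, 12.95 and 13.09 on the shSTOM-1 arrays and 10.57, 10.38 and 10.62 on the control arrays, a 5.72-fold rise (adjusted p = 1.81e-08). C1s2, also listed with a synonym, was at 12.66, 12.65 and 12.79 against 10.03, 9.85 and 10.02, a 6.65-fold rise (adjusted p = 9.08e-09). The groups were fully apart for both copies. The order of genes along chromosome 6 is C1rl, C1ra, C1s1, C1rb, C1s2 among those measured. C1rl, which encodes a C1r-like protease, lies next to C1ra and fell by 0.47 on the log2 scale (adjusted p = 0.0015). Lpcat3, a phospholipid acyltransferase gene on the far side of C1s2, fell by 1.44 (adjusted p = 5.2e-08). The 4 genes that rose thus lay between measured neighbours that fell.

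A stretch that the upstream sequences of C1ra and C1rb share is shown as a description, and any part of it in the changes was not tested. Both come from RefSeq on GRCm38.p6 and are on the plus strand, C1ra at chr6:124512522-124512620 (99 to 1 bases before its start) and C1rb at chr6:124570180-124570278 (250 to 152 bases before its start). Over 99 aligned bases, 93 (93.9%) are identical, with 6 mismatches, shown in capitals, and 0 gaps. The alignment ends where the windows of 250 bases end, so the shared stretch may be longer. For C1s1 and C1s2 the alignment held 11 bases, of which 10 are identical. It used 1 of the 2 starts of C1s1 in the RefSeq table.
C1ra: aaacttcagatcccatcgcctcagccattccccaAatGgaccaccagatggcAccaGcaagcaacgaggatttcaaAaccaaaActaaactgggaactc
C1rb: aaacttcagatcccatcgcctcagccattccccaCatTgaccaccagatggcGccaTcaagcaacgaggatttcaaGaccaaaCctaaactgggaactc
The bases before the neighbouring gene C1s1 are given beside them, with a C/EBP motif match in capitals. They lie on the minus strand at chr6:124542360-124542479, 120 to 1 bases before this start of C1s1.
C1s1: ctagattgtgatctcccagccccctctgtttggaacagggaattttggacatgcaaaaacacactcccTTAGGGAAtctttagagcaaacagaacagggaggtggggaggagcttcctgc
The RefSeq table holds promoters of 4 of the 9 genes, C3, C1ra, C1s1 and Cd55.

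Motifs of factors known to act on complement or adipocyte genes were searched on both strands of the 250 bases before each start. The C/EBP letters TTNNGNAA matched in C1ra at 72 to 65 and at 29 to 22 bases before the start, and at 242 to 235 and 52 to 45 bases before this start of C1s1. In C1rb they matched at 135 to 128 bases, outside the shared stretch, and neither match of C1ra was found in it. In C3, whose expression is not analysed here, they matched at 70 to 63, 58 to 51 and 45 to 38 bases. These letters occur in 36.8% of all 32851 promoters of the table, so a match says little. The STAT motif GAS (TTCNNNGAA, in 7.02% of promoters) matched in C1rb at 119 to 111 bases. The motifs ISRE (GAAANNGAAA, 2.98%), NF-kB (GGGANNTTCC, 1.21%) and PPRE (AGGTCA repeated after 1 free base, 0.0335%) had no match in the windows of C3, C1ra, C1rb, C1s1, C1s2 or Cd55. C1s2 and Cd55 had no match to any of the 5. No 2 of these matches in C1ra, C1rb or C1s1 overlap, and a match is no measurement of binding.

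Masp1 gives rise to the lectin pathway protease MASP-1 and, by splicing, to MASP-3, which activates factor D precursor in mice, and to a short inhibitory form. The cluster used here does not tell these forms apart. Its signal was 9.09, 8.95 and 9.11 on the shSTOM-1 arrays and 7.41, 7.16 and 7.32 on the control arrays. Every shSTOM-1 array lay above every control array, and the means differed by 1.75 on the log2 scale with a standard error of 0.07, or 3.37-fold, at an adjusted p of 1.43e-07 in limma. Adipoq, the adiponectin gene, is among the 3 nearest measured genes on 1 side of Masp1 and fell by 3.20 on the log2 scale (adjusted p = 7.24e-08). Masp2, which encodes the protease that cleaves C4 and C2 in the lectin pathway, was at 6.39, 6.30 and 6.39 on the shSTOM-1 arrays and at 7.03, 7.06 and 7.05 on the control arrays. It was 1.61-fold lower (adjusted p = 2.96e-06), so that the MASP genes moved in opposite directions.

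Among the protease genes that rose, C1ra, C1rb, C1s1, C1s2 and Masp1 each had their lowest control value on the array of clone 2 and their lowest shSTOM-1 value on the array of clone 2. Their highest control value was on the array of clone 3 for C1ra and C1rb and of clone 1 for the others. The array of clone 2 also had the lowest mean of fibroblast and preadipocyte markers in both groups, at 14.89 against 14.94 and 14.90 in shSTOM-1 cells and 12.92 against 13.11 and 13.00 in control cells. For white adipocyte markers it was lowest in shSTOM-1 cells (11.00 against 11.40 and 11.49) but not in control cells, where clones 1 and 2 were both at 14.99 and clone 3 at 15.06. How many of all genes were lowest on these arrays was not counted, and C1ra with C1rb, and C1s1 with C1s2, may share probes. The part of these array differences in the results was not tested. Clone numbers did not pair the arrays of the 2 groups, as described below, so the 2 arrays of clone 2 are not read as 1 unit. Leaving out each array in turn kept the log2 fold change of C1ra between 2.19 and 2.32 and that of Masp1 between 1.68 and 1.81.

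**Figure D2:**
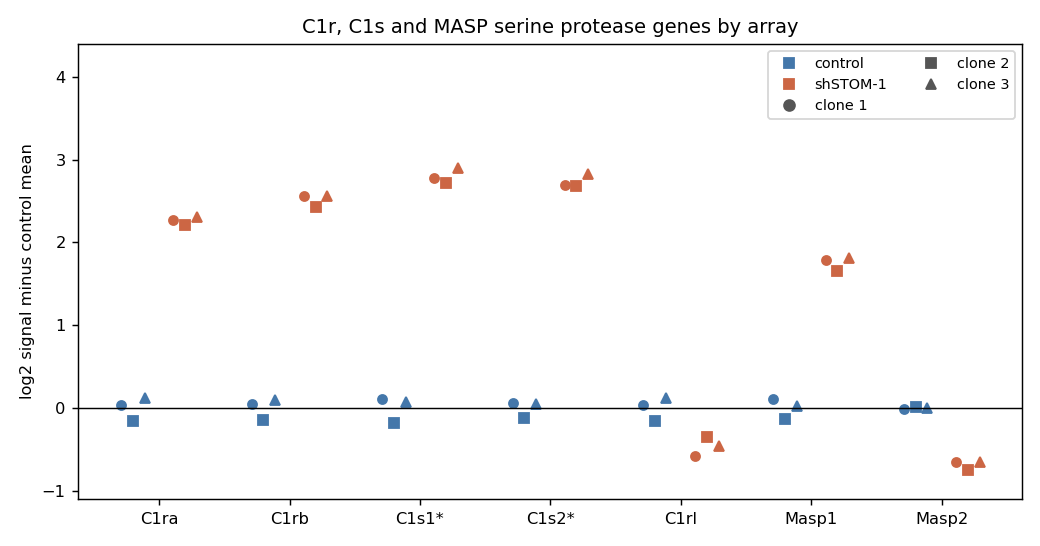
Log2 signal minus the mean of the control arrays (y axis) for 7 serine protease genes of complement, by array, with control in blue, shSTOM-1 in orange and a marker shape for each clone; genes with an asterisk were read from clusters that list a synonym. C1ra, C1rb, C1s1, C1s2 and Masp1 are raised on all shSTOM-1 arrays, and C1rl and Masp2 are below the controls.

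No rise was measured for C4b and C2, whose products C1s cleaves, both at low signals. C4b encodes C4, which C1s and MASP-2 cleave. It was at 5.32, 5.39 and 5.29 on the shSTOM-1 arrays and 5.65, 5.67 and 5.73 on the control arrays. The shSTOM-1 values lay below all control values, and the log2 difference was -0.35 with a standard error of 0.05, at an adjusted p of 0.000344. C4a, a near-identical copy that RefSeq does not mark as protein coding, fell by 0.18 on the log2 scale (adjusted p = 0.0254 in a fit of all genes with a single symbol). Probes shared between the copies could not be told apart. C2, the protease that C1s activates, was at 5.27, 5.30 and 5.23 on the shSTOM-1 arrays and 5.30, 5.26 and 5.35 on the control arrays. These ranges overlap, and the log2 fold change was -0.04 (95% interval -0.15 to 0.07, adjusted p = 0.606).

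Cfb encodes factor B, the C2-like protease of the alternative pathway, and lies next to C2 on chromosome 17. It was at 4.99, 4.99 and 5.01 on the shSTOM-1 arrays and 4.80, 4.86 and 4.82 on the control arrays. The groups did not overlap, but the rise was small, at 0.17 on the log2 scale with a standard error of 0.04 and an adjusted p of 0.0116. Both group means of Cfb lay under the median of all values. Serping1 encodes C1 inhibitor, the serpin that inactivates C1r, C1s and the MASP proteases. It was at 5.11, 5.03 and 5.15 on the shSTOM-1 arrays and 4.99, 5.10 and 4.94 on the control arrays, which overlap. Its log2 fold change was 0.09 (95% interval -0.05 to 0.22, adjusted p = 0.292), which does not reach the size seen for C1ra. C4b, C2, Cfb and Serping1 had values of 4.80 to 5.73 on all arrays, with the higher group mean less than 0.6 above the median of all values, a distance chosen after the values had been seen. They are not shown to be above background, and their fold changes may understate a change.

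Cd55 encodes decay-accelerating factor, a membrane protein that breaks up the C3 and C5 convertases. It was at 9.84, 9.99 and 10.09 on the shSTOM-1 arrays and 9.64, 9.64 and 9.54 on the control arrays. All shSTOM-1 arrays were above the control arrays, by 1.29-fold, a log2 difference of 0.37 with a standard error of 0.07 at an adjusted p of 0.00211. Its neighbouring copy Cd55b was 1.14-fold higher (adjusted p = 0.0157). That call was lost without the shSTOM-1 array of clone 3 (adjusted p = 0.0624) or without the control array of clone 2 (adjusted p = 0.06). Zp3r and C4bp, the measured genes next to Cd55 on the other side, differed by -0.01 and 0.01 on the log2 scale (adjusted p = 0.868 and 0.895).

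Unequal change was compared within 3 pairs of members by taking their difference on each array, where only the change of that difference between groups is read. C1ra minus C1s1 was smaller in shSTOM-1 cells by 0.54 on the log2 scale, at -1.07 to -0.98 on the shSTOM-1 arrays and -0.55 to -0.43 on the control arrays. C1s1 minus Serping1 was larger by 2.71, which mostly restates the rise of C1s1, since Serping1 is not shown to be above background. Cfb minus C2 was larger by 0.21, between a pair of low signals that do not measure unequal change well. In all 3 pairs the groups did not overlap, and each had p = 0.1 in a two-sided exact permutation test and an adjusted p of 0.1, which is as low as 3 arrays in each group can give.

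**Figure D3:**
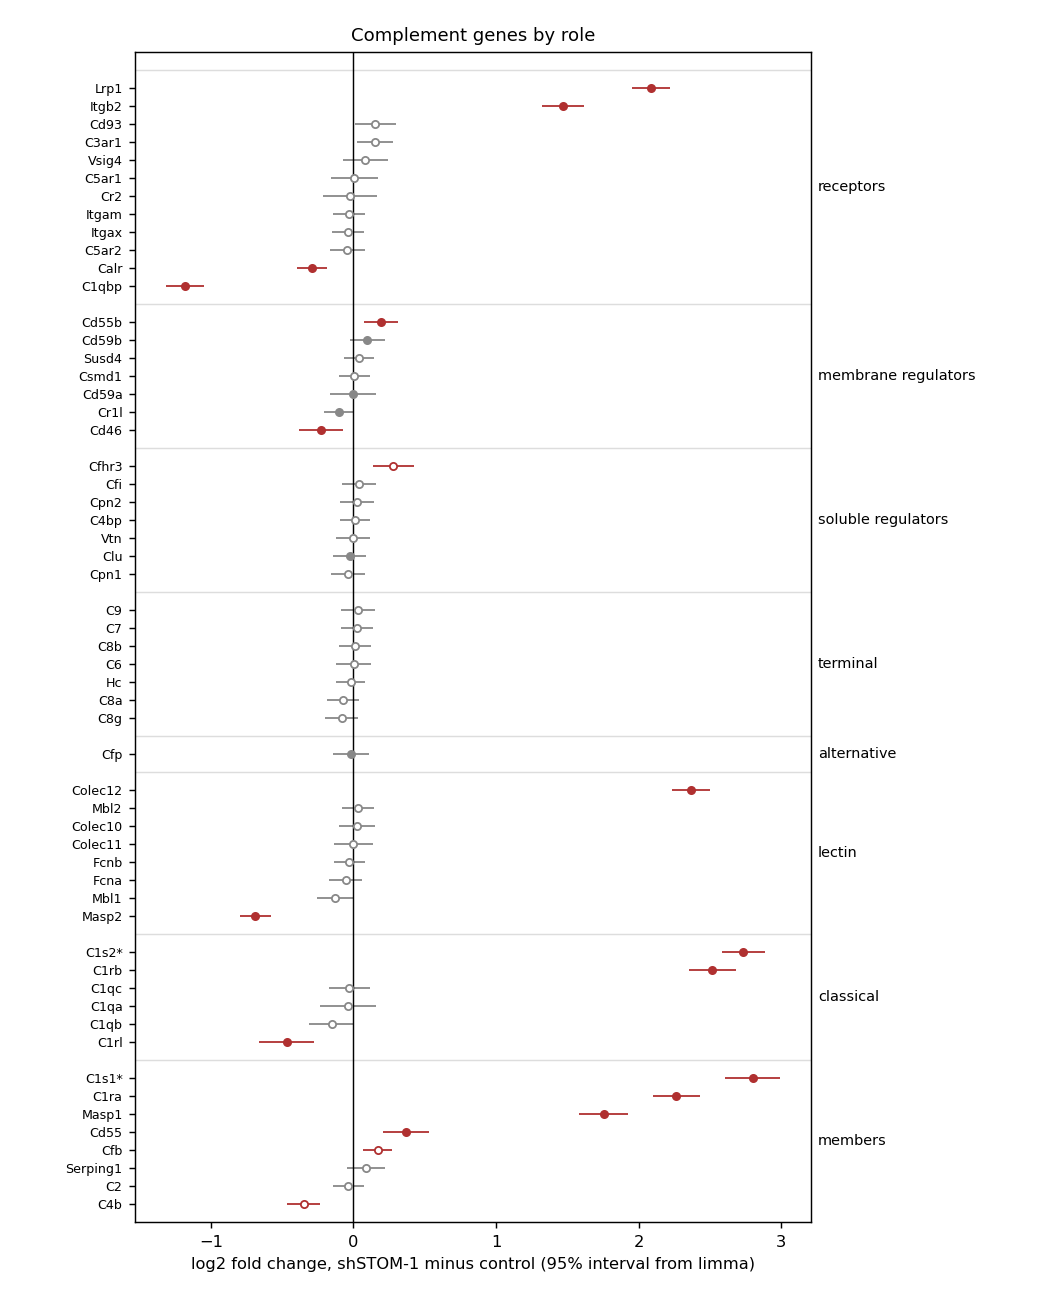
Log2 fold change, shSTOM-1 minus control (x axis), with its 95% interval from limma for each measured complement gene, grouped by role; red marks an adjusted p under 0.05, open circles mark genes whose higher group mean was less than 0.6 above the median of all values, and asterisks mark clusters that list a synonym. Large rises are seen for C1s1, C1s2, C1rb, Colec12, C1ra, Lrp1, Masp1 and Itgb2, and 0 of 7 terminal pathway genes passed.

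The rest of the pathway was mostly low in these cells. Of 53 further complement genes listed, 47 were measured, of which 6 were higher, 5 were lower and 36 were not past an adjusted p of 0.05, where 22.2% of all genes were higher and 22.7% lower. Their median log2 fold change was 0.00, and 32 of them had low signals by the same distance, as had 8802 of all 19047 genes tested. The 3 chains of C1q, C1qa, C1qb and C1qc, which recognise the target in the classical pathway, had values of 4.14 to 4.87 and 0 passed. The 7 genes of the terminal pathway, from C5 (Hc) to C9, had values of 3.81 to 5.65, and 0 passed, with 95% intervals between -0.20 and 0.15. The 6 soluble lectins and ficolins that start the lectin pathway had values of 4.22 to 5.13, and 0 passed. Properdin (Cfp), the stabiliser of the alternative pathway convertase, differed by -0.02 on the log2 scale (adjusted p = 0.857). Cfd is not analysed here.

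Colec12 stood apart from the other collectins. It encodes a membrane-bound scavenger receptor of the collectin family that is known to bind sugars and to start complement activation on surfaces. It was at 15.19, 15.21 and 15.31 on the shSTOM-1 arrays and 12.96, 12.82 and 12.83 on the control arrays. The groups were widely separated, at a log2 difference of 2.37 with a standard error of 0.06, or 5.16-fold, at an adjusted p of 9.62e-09.

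Among 12 receptor and binding protein genes, 2 were higher and 2 were lower, where 22.2% of all genes were higher and 22.7% lower. Lrp1, an endocytic receptor that clears complexes of proteases and serpins, was at 15.41, 15.25 and 15.37 on the shSTOM-1 arrays and 13.20, 13.26 and 13.31 on the control arrays, a 4.25-fold rise (adjusted p = 1.52e-08). Itgb2, the chain that the complement receptors CR3 and CR4 share, was 2.77-fold higher (adjusted p = 1.78e-07), though its control mean of 5.60 was near the median of all values. Its partner chains Itgam and Itgax had values of 4.11 to 4.59 and 0 of them passed. C1qbp, a mainly mitochondrial protein named for binding C1q, was 2.27-fold lower (adjusted p = 3.68e-07), and Calr, which encodes calreticulin, was 1.22-fold lower (adjusted p = 0.000816). The receptors of C3a and C5a, C3ar1, C5ar1 and C5ar2, had values of 3.79 to 4.63 and 0 passed.

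The measured membrane regulators other than Cd55 changed little. Cr1l, which encodes Crry, a widely expressed inhibitor of C3 convertases, averaged 10.15 on the shSTOM-1 arrays (SD 0.04, n = 3) and 10.25 on the control arrays (SD 0.03, n = 3), with a 95% interval of -0.20 to 0.00 for the log2 fold change (adjusted p = 0.116 from limma). Cd59a, an inhibitor of the membrane attack complex, differed by 0.00 on the log2 scale (95% interval -0.16 to 0.16, adjusted p = 0.975). Cd46, a cofactor of factor I, was 1.17-fold lower (adjusted p = 0.0221). That call was lost without the shSTOM-1 array of clone 1 (adjusted p = 0.0711) or clone 3 (adjusted p = 0.0648), or without the control array of clone 2 (adjusted p = 0.0824), and in a linear model without moderation (adjusted p = 0.086). Among the soluble regulators, clusterin (Clu) differed by -0.03 on the log2 scale (adjusted p = 0.729). Cfhr3 was 1.21-fold higher (adjusted p = 0.00509) at means of 4.67 and 4.39, both under the median of all values.

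**Figure D4:**
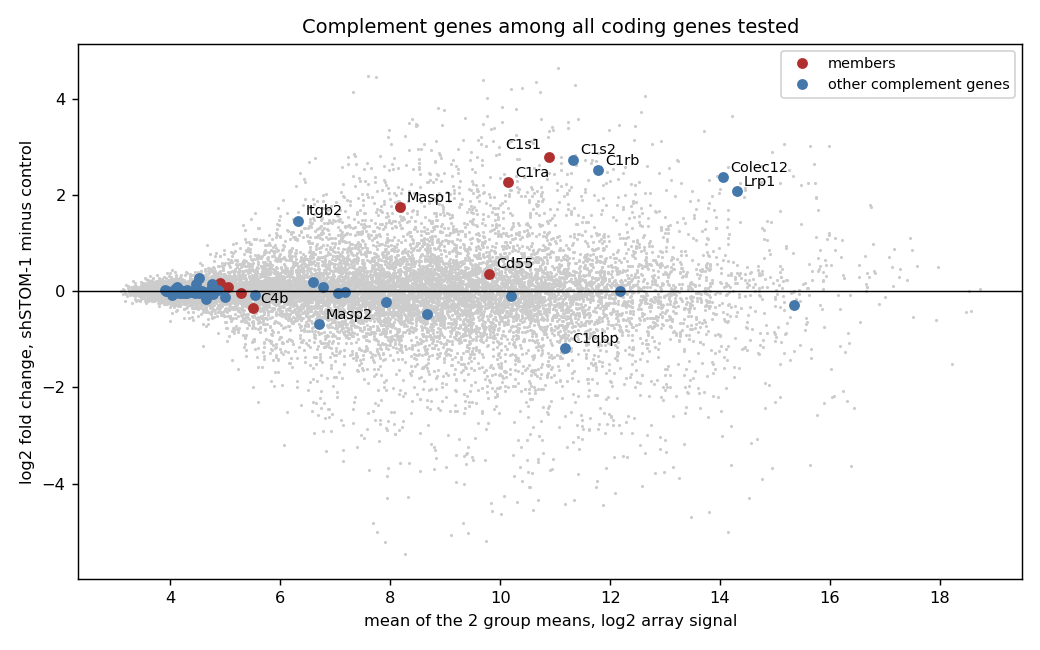
Log2 fold change, shSTOM-1 minus control (y axis), against the mean of the group means (x axis, log2 array signal) for the 19047 coding genes tested (grey), with complement members in red and other complement genes in blue, C1s1 and C1s2 being added from clusters that list a synonym. Most complement genes lie at low signals with changes near 0, and the proteases that rose lie at signals above 8.

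Of the measured genes next to the members outside the complement lists, 5 of 29 were higher, 8 were lower and 16 did not pass, where 44.9% of all genes passed in either direction. Next to C4b, C2 and Cfb, in the major histocompatibility region, Tnxb was higher by 1.26 and Fkbpl lower by 1.05 on the log2 scale (adjusted p = 2.11e-06 and 9.63e-06), while Nelfe, beside Cfb, had the same mean in both groups, 8.13.

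Genes of the acute phase, which the liver and fat cells switch on in inflammation together with several complement genes, moved in both directions. Of 17 measured, 4 were higher, 6 were lower and 7 did not pass, against 44.9% of all genes that passed in either direction. Orm1, an acid glycoprotein gene, was at 9.81, 9.54 and 10.00 on the shSTOM-1 arrays and 13.89, 13.57 and 13.71 on the control arrays, 15.3-fold lower (adjusted p = 2.3e-08), with probes possibly shared with its close copies. Hp, which encodes haptoglobin, was 5.58-fold lower (adjusted p = 1.22e-07). Ptx3, a pentraxin that binds C1q, rose, at 10.17, 9.79 and 9.87 on the shSTOM-1 arrays and 7.79, 7.33 and 7.40 on the control arrays, or 5.41-fold (adjusted p = 7.28e-07).

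The receptors and factors known to induce complement genes, listed together with the NF-kB inhibitor gene Nfkbia, were also split. Of 21 measured, 10 were higher, 7 were lower and 4 did not pass, where 22.2% of all genes were higher and 22.7% lower. Their median log2 fold change was 0.19. Nfkbia was 1 of the 7 lower, by 0.47 on the log2 scale (adjusted p = 0.000823 in limma). Il1r1, the interleukin-1 receptor, was 3.17-fold higher (adjusted p = 1.06e-07) and Nfkb2, an NF-kB subunit, was 2.55-fold higher (adjusted p = 2.26e-07). Ifngr1, the ligand-binding chain of the interferon gamma receptor, averaged 11.07 on the shSTOM-1 arrays (SD 0.02, n = 3) and 12.78 on the control arrays (SD 0.02, n = 3), a 3.26-fold fall with an adjusted p of 1.02e-08 from limma. Among other genes linked to targets of C1 inhibitor, the plasminogen activator genes Plat and Plau were 24.9-fold and 3.07-fold higher (adjusted p = 6.73e-09 and 3.93e-08), with Plau at a control mean of 5.31. F11, F12, Kng1 and Plg had values of 4.14 to 5.05, and 0 of the 4 passed.

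**Figure D5:**
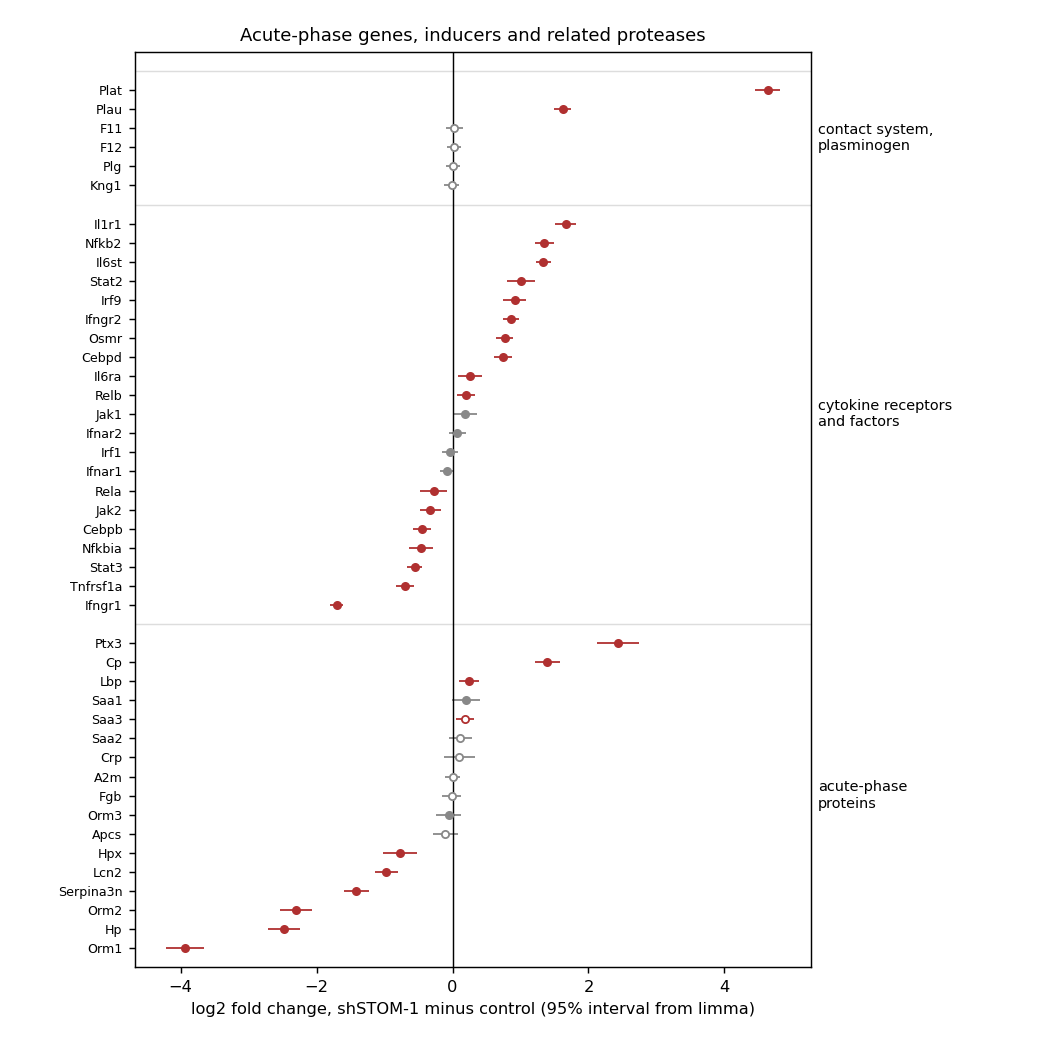
Log2 fold change, shSTOM-1 minus control (x axis), with its 95% interval from limma for genes of the acute phase, receptors and factors known to induce complement genes, and proteases of the contact and plasminogen systems; red marks an adjusted p under 0.05 and open circles mark low signals. Orm1 and Hp are far to the left, and Plat and Ptx3 far to the right. The receptors and factors are listed together with Nfkbia, which encodes an inhibitor of NF-kB.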

How the data were processed

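Total RNA (200 ng per sample) was hybridised to Affymetrix MTA-1_0 arrays. The authors used the Transcriptome Analysis Console 4.0 on the CEL files, and the deposited values are log2 signals of 65956 transcript clusters. How they were background-corrected and normalized, and on which build and annotation, is not given in any source used here. Near-equal medians on all arrays tie the balance of higher and lower genes to that scaling.

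Of the clusters, 30638 had 1 gene symbol, 2176 had several and 33142 were not listed or had none. Clusters with several symbols were not named, except that C1s1, C1s2 and the neighbouring gene Dxo were read from clusters whose symbols RefSeq (GRCm38.p6) gives as names of 1 gene. Protein-coding genes (19047) were fitted in limma 3.58.1 (R 4.3.3; lmFit, then eBayes), and p-values were adjusted by Benjamini-Hochberg over all of them. Fold thresholds (3-fold at an adjusted p under 0.001) follow the study. The members and lists were chosen with earlier results of these data known. Named genes were the members, Stom, complement genes past 3-fold and up to 3 genes per list with the largest change past an adjusted p of 0.05. C1s2, C4a, Calr, Cr1l, Cd59a, Cfp, Clu and neighbouring genes were named after their values were seen. The procedure was tested on simulated data. The alternatives were quantile normalization, median centring, a filter on dim genes, the mean of a gene's clusters, a trended robust fit, a fit without moderation, a block for clone number, all genes with a symbol, and each array left out. Plots were drawn in Python 3.11.15 with matplotlib 3.10.9.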

Additional observations from a re-analysis of the deposited data

How the results depend on the processing

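Under all alternatives run, 4 or 3 members were higher and 1 was lower at an adjusted p of 0.05, and C1ra and Masp1 stayed the 2 past 3-fold. The count of 3 higher came from the filter on dim genes, which removes Cfb, and also Serping1, which had not passed before. That filter kept C4b and C2, so it was looser than the rule for low signals used above. The 1 lower member, C4b, is at low signals by that rule, and a filter by that rule was not run. Among members, C2 changed sign with the mean of its clusters, at 0.02 (adjusted p = 0.772), and had not passed before. The clone numbers did not pair the arrays, as deviations of same-numbered arrays correlated at -0.13 to 0.03 and no shSTOM-1 array correlated best with its own number. With the clone number as a replicate block, 4025 genes were higher and 4141 lower, and members kept 4 and 1. For pairs of members, limma with this block gave -0.537 for C1ra minus C1s1 (adjusted p = 0.00149) and 2.71 for C1s1 minus Serping1 (adjusted p = 2.65e-07), past 0.05. It gave 0.207 for Cfb minus C2 (adjusted p = 0.0614), not past it. The exact test cannot reach 0.05, but this block rests on numbers that did not pair the arrays. These p-values therefore do not replace the exact test. Pairs with C3 were not run. Without detection calls, low signals limit C4b, C2, Cfb and Serping1.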
